A study of Mus musculus with 16 samples.

Results

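Cytosolic ribosomal proteins are the protein subunits of the ribosome in the cytoplasm. The genes were taken by their GENCODE M21 symbols, as the protein-coding genes named Rpl or Rps with a number and at most 1 of the letters a, x, l or y, together with Rplp0, Rplp1, Rplp2 and Rpsa. This gave 80 of 55536 annotated genes, 49 of the large and 31 of the small subunit, and measured values played no part in the choice. Of the 80, 78 passed the filter on low counts. Rpl10l and Rpl3l, copies of Rpl10 and Rpl3, were not tested, with 3 and 7 counts in all over 16 libraries.

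Each ribosome pairs a small subunit, which binds the mRNA and reads the code, with a large subunit, which joins amino acids. The mRNAs of these proteins are among the most abundant and shortest in a dividing cell, and most begin with a run of pyrimidines that ties their translation to growth signals. New ribosomes also need a separate set of assembly factors in the nucleolus. Activated T cells raise both sets before they divide.

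The libraries came from CD8+ T cells of OT-I Tg mice on the C57BL/6J background, whose T cell receptor recognizes the SIINFEKL peptide. Cells had been electroporated with Cas9 and either a scrambled Control gRNA or a Tardbp gRNA against the gene of TDP-43, an RNA-binding protein that controls splicing. They were then transferred into C57BL6/J recipients. Both groups received antigen with the costimulatory antibodies anti-OX40 and anti-41BB. CD8+ cells were sorted from spleen and lymph nodes after 4 days in the labels, per the methods by surface markers of the transferred cells. The methods describe the study's OT-I mice as Rag-deficient. The study's text says that purified cells underwent stimulation and RNA-seq. Whether the sequenced cells had been stimulated after the sort is not clear from it. There were 8 libraries per group, from individual recipients per the study's text, and the labels give no age. A letter M or F was deposited for each library under the header sex, and both letters occur in each group. The methods describe electroporation of pooled cells and name no cloning step.

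Totals in annotated genes ran from 56016533 to 94801105 counts per library. Tardbp mRNA was 192 ± 13.3 CPM (counts relative to library size, scaled by TMM) in Control gRNA against 135 ± 11.3 CPM in Tardbp gRNA (SD, n = 8 per group), which gives a log2 fold change of -0.51 (SE 0.0558, adjusted p 8.07e-07 by edgeR), with no overlap between groups. All 8 CD8 T cell markers on the list were present, and their summed level was 4787 to 5777 CPM in Control gRNA against 7019 to 8676 CPM in Tardbp gRNA. Of the markers of other cells, 2 of 7 tested B cell genes, 2 of 6 myeloid genes and 4 of 5 red cell genes were higher in Tardbp gRNA at the same threshold. None of 4 CD4 T cell and 2 NK cell genes were, and no marker of these lists was lower. Beside these, 23.5% of all tested genes were higher and 23.3% lower, and 6.61% were higher without overlap. Summed B cell markers were 402 to 468 CPM in Control gRNA against 591 to 758 CPM in Tardbp gRNA, most of it Ighm, while the defining B cell gene Pax5 had a median of 0 CPM in both groups. Summed levels were 14.6 to 36.1 against 20.01 to 83.0 CPM for myeloid genes, 0.437 to 17.0 against 9.31 to 186 CPM for red cell genes, 4.20 to 20.4 against 6.27 to 15.98 CPM for CD4 T cell genes and 0.530 to 2.96 against 0.982 to 4.13 CPM for NK cell genes, Control gRNA first. The part of these cells in the results below was not tested. RNA concentration, with no unit in its header, was 34.9 to 197.1 in Control gRNA against 10.1 to 24.0 in Tardbp gRNA, so that it cannot be told apart from the group.

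To determine how ribosomal protein mRNAs differed after Tardbp editing, each gene was compared between groups with edgeR's quasi-likelihood test. Of the 78 tested genes, 38 rose in Tardbp gRNA (48.7%) and 2 fell (2.56%), at an adjusted p under 0.05. Over all 16650 tested genes, 23.5% rose and 23.3% fell. The changes were small. In bulk RNA, less of an mRNA per cell and fewer cells that hold it cannot be told apart. The median log2 fold change of the ribosomal protein genes was 0.13, against 0.05 for all tested genes, and 64 of the 78 values lay above 0. Without Tardbp gRNA library 4 these medians were 0.08 and 0.02. No size passed 0.5 on the log2 scale except in Rpl39l and Rps27. Both subunits gave like figures, with 23 of 47 large subunit genes higher and 2 lower (median 0.12), and 15 of 31 small subunit genes higher and none lower (median 0.13). The groups stood apart without overlap in 4 genes, Rps27, Rpl32 and Rps19 among them, all higher in Tardbp gRNA. That is 5.13% of the ribosomal protein genes, beside 6.61% of all tested genes that stood apart in this direction and 10.3% in the other.

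The number of calls depended on the scaling and on length. With library totals in place of TMM, which moved the median of all genes from 0.05 to 0.12, 56 rose and none fell, beside 29.3 and 18.8% of all genes. With each library's trend on transcript length taken out, an alternative chosen after the data were seen, 12 rose and 18 fell, beside 24.2 and 21.7%.

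**Figure D1:**
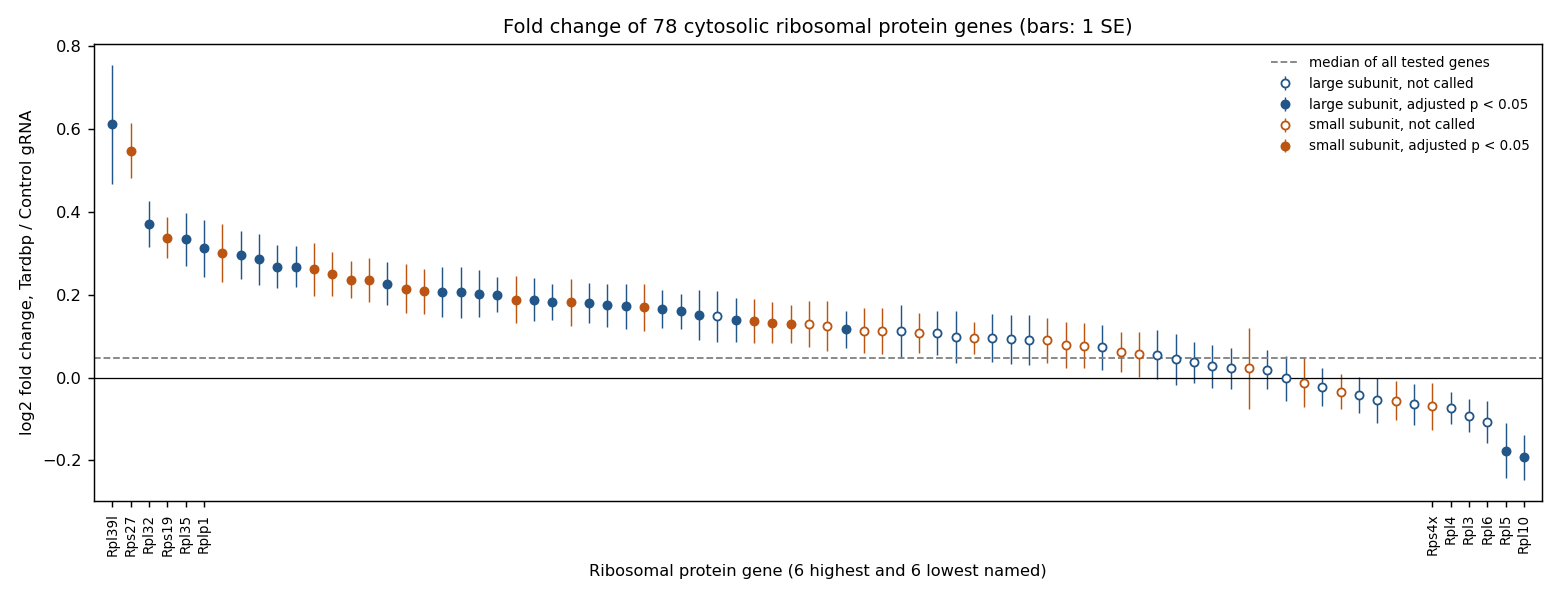
Log2 fold change of Tardbp gRNA over Control gRNA (vertical axis, edgeR, bars 1 SE) for each of the 78 tested ribosomal protein genes, ordered by value, with filled points at an adjusted p under 0.05. The values fall from 0.61 in Rpl39l to -0.19 in Rpl10, and the dashed line marks the median of all tested genes at 0.05.

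Rps27 showed the highest fold change among the abundant genes. It encodes a zinc finger protein of the small subunit (chromosome 3, 90212522 to 90213651, minus strand, GRCm38). Its mRNA was 190 CPM in the lowest, 217 CPM at the median and 240 CPM in the highest Control gRNA library, and 273, 311 and 384 CPM in Tardbp gRNA. Every Tardbp gRNA library was thus above every Control gRNA library. The log2 fold change was 0.55 (SE 0.0666, adjusted p 2.61e-06 by edgeR). Rps27 was the only ribosomal protein gene called among libraries numbered 1 to 3 alone (0.40, adjusted p 0.0486), and it remained higher with the length trend taken out (0.33, adjusted p 1.66e-05).

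The paralog Rps27l, a p53 target in its own right, rose less. It had 257 to 347 CPM in Control gRNA against 302 to 377 CPM in Tardbp gRNA, with medians of 290 and 323 CPM and overlapping groups. Its log2 fold change was 0.17 (SE 0.0562, adjusted p 0.0187 by edgeR). The call was lost without Control gRNA library 4 (adjusted p 0.0756) or 8 (0.0598) and without Tardbp gRNA library 1 (0.0622), 4 (0.0887), 5 (0.0599), 6 (0.055) or 7 (0.0512), and with the length trend taken out its value was -0.02 (0.755). Rps27rt, an intronless near-copy of Rps27 outside the gene choice, rose to 21.1 ± 2.41 CPM from 14.3 ± 1.48 CPM (SD, n = 8 per group), which gives a log2 fold change of 0.56 (edgeR adjusted p 1.57e-05). Reads of Rps27 and Rps27rt may be shared by the authors' counting, so neither value is independent of the other.

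Rpl32, Rps19 and Rpl35 followed. Rpl32, a large subunit protein whose gene also holds a snoRNA, ranged from 621 to 793 CPM (median 697) in Control gRNA and from 819 to 1077 CPM (median 884) in Tardbp gRNA. Rps19, the small subunit protein most often mutated in Diamond-Blackfan anaemia, ranged from 639 to 778 CPM (median 702) and from 815 to 1036 CPM (median 864). In both genes the groups did not overlap. Their log2 fold changes were 0.37 (SE 0.0546, adjusted p 2.18e-05 by edgeR) and 0.34 (SE 0.050, adjusted p 2.26e-05). Rpl35, which sits beside the exit of the peptide tunnel, ranged from 391 to 533 CPM (median 438) in Control gRNA and from 502 to 656 CPM (median 555) in Tardbp gRNA. Its groups overlapped only through Control gRNA library 1, the highest of its group, and the log2 fold change was 0.33 (SE 0.0642, adjusted p 0.00032 by edgeR).

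Rpl39l gave the highest fold change of all, at a low level. It is a copy of Rpl39 known for its use in male germ cells. Its mRNA ranged from 1.23 to 2.16 CPM (median 1.39) in Control gRNA and from 2.03 to 2.86 CPM (median 2.44) in Tardbp gRNA, with overlap, and the log2 fold change was 0.61 (SE 0.144, adjusted p 0.00188 by edgeR). The parent Rpl39 had medians of 195 and 215 CPM and was not called (0.11, SE 0.0639, edgeR adjusted p 0.162). It was called without Control gRNA library 1 (adjusted p 0.0381), with library totals (0.18, adjusted p 0.021) and among numbers 4 to 8 alone (0.16, adjusted p 0.0433), and its sign turned with the length trend taken out (-0.06, adjusted p 0.369). Per unit of length, Rpl39l stood at 3.40 TPM (abundance per unit of length, relative to the library) and Rpl39 at 531 TPM in Control gRNA.

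**Figure D2:**
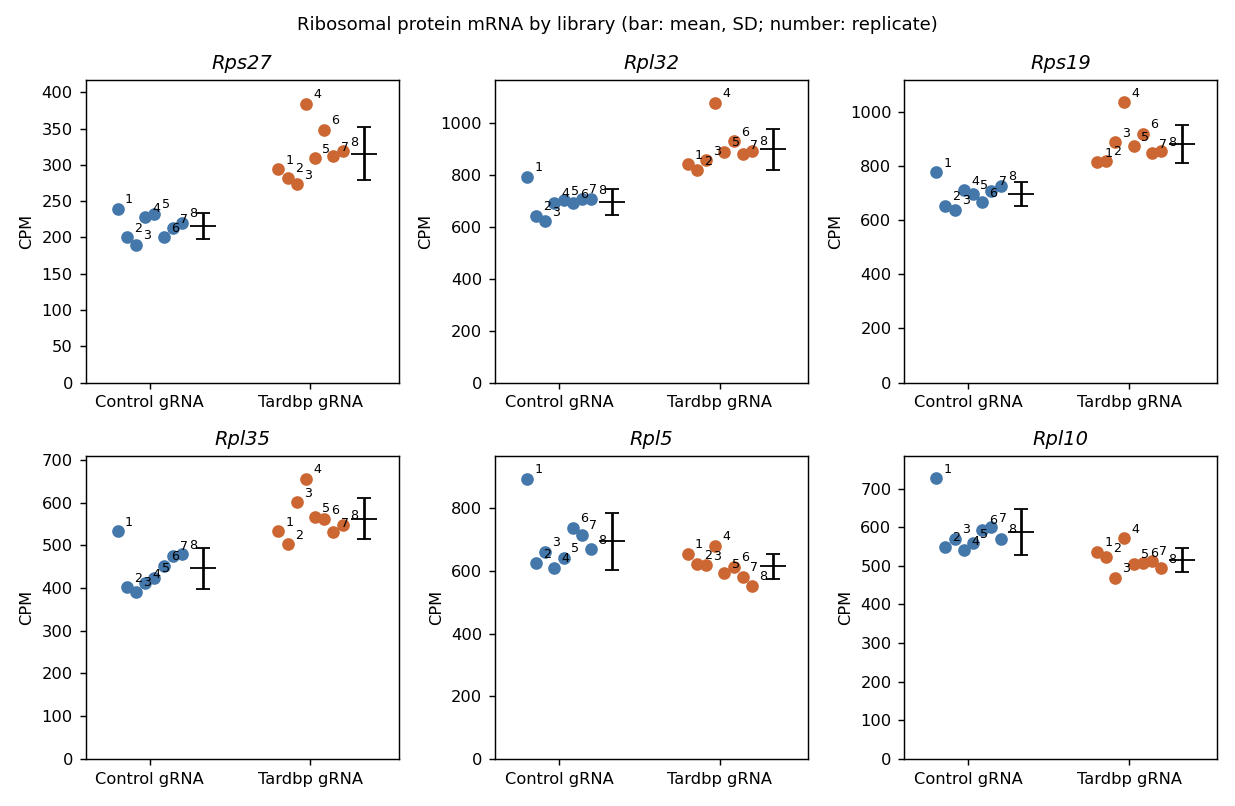
Scaled counts (CPM, vertical axis from 0) of 6 ribosomal protein mRNAs in each library, with replicate numbers at the points and the mean and SD as bars. Tardbp gRNA libraries lie above all Control gRNA libraries for Rps27, Rpl32 and Rps19, and overlap with them for Rpl35, Rpl5 and Rpl10.

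Of the 3 genes of the P stalk, the lateral arm of the large subunit that recruits elongation factors, 2 rose. Rplp1 rose from a median of 383 CPM (352 to 503) to 497 CPM (403 to 542), a log2 fold change of 0.31 (SE 0.0691, adjusted p 0.00111 by edgeR). Rplp2 rose from a median of 362 CPM (325 to 424) to 422 CPM (395 to 477), a log2 fold change of 0.23 (SE 0.0520, adjusted p 0.00152). Both overlapped between groups. With the length trend taken out, Rplp1 lost its call (0.13, adjusted p 0.0531) and Rplp2 kept it (0.11, adjusted p 0.036). Rplp0, the base that anchors them, had medians of 1862 CPM (1699 to 2216) and 1824 CPM (1745 to 1955) and a log2 fold change of -0.04 (SE 0.0441, adjusted p 0.46 by edgeR). Its sign turned with library totals (0.03), and with the same correction it was lower (-0.12, adjusted p 0.0187). The difference between Rplp0 and the other stalk genes was not itself tested.

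Other members with known roles split between called and uncalled. Rpl38, known for translation of Hox mRNAs, rose with a log2 fold change of 0.30 (SE 0.0570, adjusted p 0.000322 by edgeR), from 185 to 252 CPM in Control gRNA to 237 to 286 CPM in Tardbp gRNA. Rpl22, needed in alpha-beta T cell development, rose by 0.29 on the log2 scale (SE 0.0619, adjusted p 0.000915), from 98.2 to 127 CPM to 115 to 156 CPM. Rps14, whose loss marks the 5q- syndrome, rose by 0.25 (SE 0.0528, adjusted p 0.000733). The groups overlapped in all 3. With the length trend taken out, Rpl38 (0.09, adjusted p 0.0583) and Rps14 (0.08, adjusted p 0.0761) lost their calls, and Rpl22 was at 0.11 (adjusted p 0.0415).

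Rpl13a, a component of the interferon-gamma-activated inhibitor of translation, rose by 0.20 on the log2 scale (SE 0.0423, adjusted p 0.000751 by edgeR). Rps24 rose by 0.19 (SE 0.0570, adjusted p 0.011) and lost its call without Control gRNA library 4 (0.0526) or Tardbp gRNA library 4 (0.0584). Rps6, the target of S6 kinase, had a log2 fold change of 0.11 (SE 0.0487, adjusted p 0.0766). Rps3, at the mRNA entry site, had 0.10 (SE 0.0390, adjusted p 0.0504). Neither passed the threshold, though both did without Control gRNA library 1 (adjusted p 0.0107 and 0.0191), and Rps3 without Tardbp gRNA library 3 (0.0408). Both were called with library totals (0.18, adjusted p 0.00398, and 0.17, adjusted p 0.00125). Without Tardbp gRNA library 4 their values were 0.05 and 0.05, and with the length trend taken out Rps6 was at -0.02 (adjusted p 0.632).

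Rpsa, the laminin receptor precursor of the small subunit, was at 0.06 (SE 0.0492, adjusted p 0.32 by edgeR), and was called with library totals (0.13, adjusted p 0.0251). Rps27a, made as a fusion with ubiquitin, was at 0.02 (SE 0.0973, adjusted p 0.873), with values from 289 to 494 CPM in Tardbp gRNA. The sign of Rps27a turned in 10 of its alternative fits. Rpl11, which with Rpl5 and the 5S rRNA forms the particle that binds Mdm2, was at 0.04 (SE 0.0497, adjusted p 0.566).

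Rpl10 and Rpl5 were the members that fell. Rpl10, which joins the large subunit late and completes its active site, had 540 CPM in the lowest, 570 CPM at the median and 727 CPM in the highest Control gRNA library, and 469, 511 and 572 CPM in Tardbp gRNA. The groups overlapped. Its log2 fold change was -0.19 (SE 0.0548, adjusted p 0.00754 by edgeR), and it kept its call in every fit that left out libraries (adjusted p up to 0.0165), though not with library totals (-0.12, adjusted p 0.0632), among numbers 1 to 3 alone (-0.30, adjusted p 0.14) or with RNA concentration as a covariate (-0.05, adjusted p 0.799).

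Rpl5 had 611 CPM in the lowest, 665 CPM at the median and 894 CPM in the highest Control gRNA library, and 552, 616 and 680 CPM in Tardbp gRNA. Its groups also overlapped, and its highest value came from Control gRNA library 1. The log2 fold change was -0.18 (SE 0.0671, adjusted p 0.0383 by edgeR), and the call was lost without Control gRNA library 6 (adjusted p 0.0694) or 7 (0.0619) and without Tardbp gRNA library 2 (0.0507) or 3 (0.0522). It was also lost with library totals (-0.10, adjusted p 0.195), with no filter (0.0862), among numbers 4 to 8 alone (0.0583) or 1 to 3 alone (0.297) and with the GC trend taken out (0.103), and with RNA concentration as a covariate the sign turned (0.03, adjusted p 0.913). Next in order were Rpl6 (-0.11, adjusted p 0.0916), Rpl3 (-0.09, adjusted p 0.0659), Rpl4 (-0.07, adjusted p 0.129) and Rps4x (-0.07, adjusted p 0.339), none of which passed the threshold. Without Tardbp gRNA library 4, Rpl3 (adjusted p 0.00761), Rpl4 (0.0187) and Rpl6 (0.0324) did, as did Rpl3 in 9, Rpl4 in 2 and Rpl6 in 3 other fits that left out libraries. With the length trend taken out, Rpl3 (-0.17), Rpl4 (-0.13), Rpl6 (-0.19) and Rps4x (-0.19) were all called lower. Rpl3 lies near the centre of peptide bond formation, Rpl4 lines the peptide tunnel, and Rps4x is the X-linked form of a small subunit protein.

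Levels between genes were compared per unit of length. Rpl13 (2596 ± 141 TPM), Rplp0 (2283 ± 140), Rpl41 (2209 ± 137) and Rpl32 (2199 ± 120) were among the 5 highest in Control gRNA (SD, n = 8). Rplp0, Rpl41 and Rpl32 lay within their SDs of each other. They were picked by level after the values were seen. Among tested genes the lowest were Rpl39l, Rps20 (128 ± 11.1 TPM) and Rps15a (202 ± 81.5 TPM). Rps20 was at 253 CPM in Control gRNA, and its most covered transcript is 3706 bases long, against a median of 744 in members. Its TPM thus depends on how the authors' tool split counts among transcripts.

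As a share of the library, ribosomal protein genes held 3.56 ± 0.261% of counts in Control gRNA against 4.02 ± 0.221% in Tardbp gRNA (SD, n = 8 per group). The lowest, median and highest libraries were 3.27, 3.54 and 4.09% in Control gRNA against 3.78, 3.98 and 4.496% in Tardbp gRNA. Only Control gRNA library 1 overlapped with the other group. Per unit of length the share was 7.51 ± 0.473% and 7.91 ± 0.364% of TPM, and there the groups overlapped more widely, at 6.95 to 8.44% and 7.39 to 8.64%.

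The genes varied together between libraries of a group. In Control gRNA library 1 the median ribosomal protein gene was 0.24 log2 units above the mean of its group, and in Tardbp gRNA library 4 it was 0.18 above. Without Control gRNA library 1, 52 members rose and 2 fell, beside 22.3 and 23.5% of all genes. Without Tardbp gRNA library 4, 26 rose and 5 fell, beside 19.7 and 23.9%. Without both, 42 rose and 3 fell, beside 20.9 and 23.2%, with a median of 0.13. An earlier analysis had set libraries numbered 1 to 3 apart from 4 to 8, a division that no label names. Among numbers 4 to 8, 42 members rose and 1 fell (median 0.16), where 19.7% of all genes rose and 21.1% fell. Among numbers 1 to 3, with 3 libraries per group, 1 rose and none fell (median 0.05), where 3.3% of all genes rose and 6.76% fell. No gene was called for a difference between these divisions (edgeR, 558 of 16650 genes and none of the members at an unadjusted p under 0.05). With RNA concentration as a covariate, 15 members rose and none fell, where 6.07% of all genes rose and 10.1% fell. The median of members was 0.25 in that fit, against 0.03 for all genes, and RNA concentration cannot be told apart from the group.

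**Figure D3:**
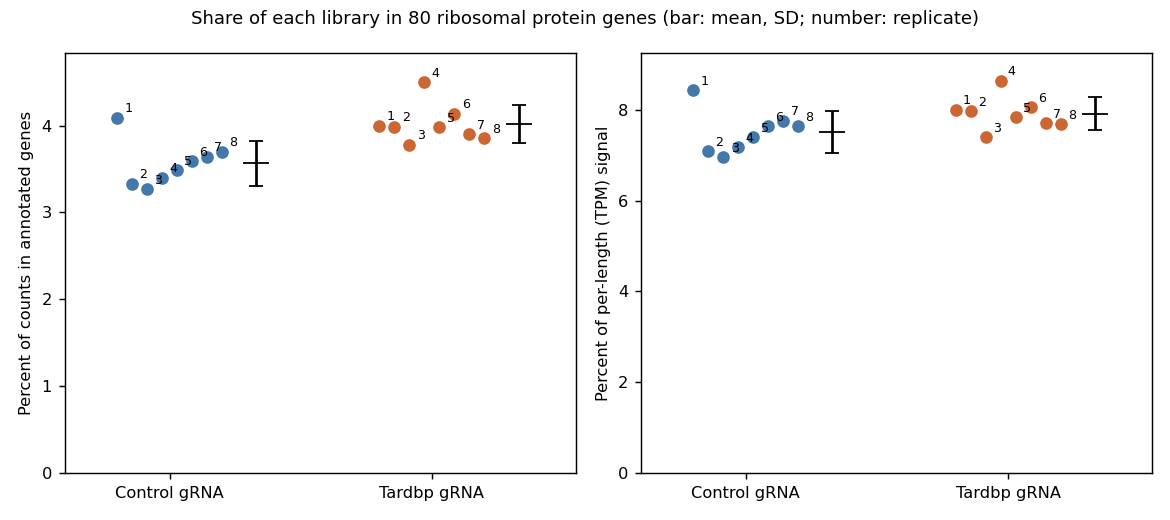
Percent of counts (left) and of per-length signal in TPM (right) held by the 80 ribosomal protein genes in each library, with replicate numbers at the points and the mean and SD as bars. On counts only Control gRNA library 1, at 4.09%, reaches into the Tardbp gRNA range of 3.78 to 4.496%.

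Fold change ran with transcript length among these genes. Length was that of the transcript with the most coverage, and it ranged from 345 to 3706 bases with a median of 744, against 2273 over the other tested genes. Across the 78 genes, which share the same 16 libraries, Spearman's rho of log2 fold change with length was -0.43, and -0.44 over the 73 of up to 1500 bases. Across the other 16572 tested genes it was -0.25. The median log2 fold change of members was 0.19 at up to 500 bases (16 genes), 0.14 at 500 to 700 (20 genes), 0.12 at 700 to 1000 (24 genes), 0.06 at 1000 to 1500 (13 genes) and 0.10 above (5 genes).

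Other abundant genes, with a mean log2 CPM over 6, had medians of 0.33, 0.27, 0.19, 0.05 and -0.19 in the same order of length. That bound is a floor, with no matching of levels to the members, and the member Rpl39l lies below it. In the 3 shortest bands the median of members lay below that of other abundant genes, with no test made. Of those other genes 72.9% rose at up to 500 bases and 71% at 500 to 700, beside 10 of 16 and 12 of 20 members.

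With the length trend taken out, the median of members was -0.02. All 12 members that then rose had also risen without the correction, and of the 18 that then fell 2, Rpl10 and Rpl5, had fallen without it. The 12 included Rpl39l (0.47), Rps27 (0.33), Rps20 (0.33), Rpl35 (0.21), Rps19 (0.19), Rpl32 (0.18), Rps24 (0.14), Rpl22 (0.11), Rplp2 (0.11), Rpl41 (0.09) and Rpl13a (0.09), as log2 fold changes, some of them outside the rule for named genes and listed after their values were seen. Rps20 moved up from 0.18 with the correction. Its assigned length of 3706 bases, the longest of the members, depends on how counts were split among its transcripts. Rpl10 had the lowest value, at -0.33 (SE 0.0442, adjusted p 9.3e-06 by edgeR). The mean fragment size that the sequencing facility gave was 376 to 409 in Control gRNA against 368 to 397 in Tardbp gRNA, and its part in the length trend was not tested.

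**Figure D4:**
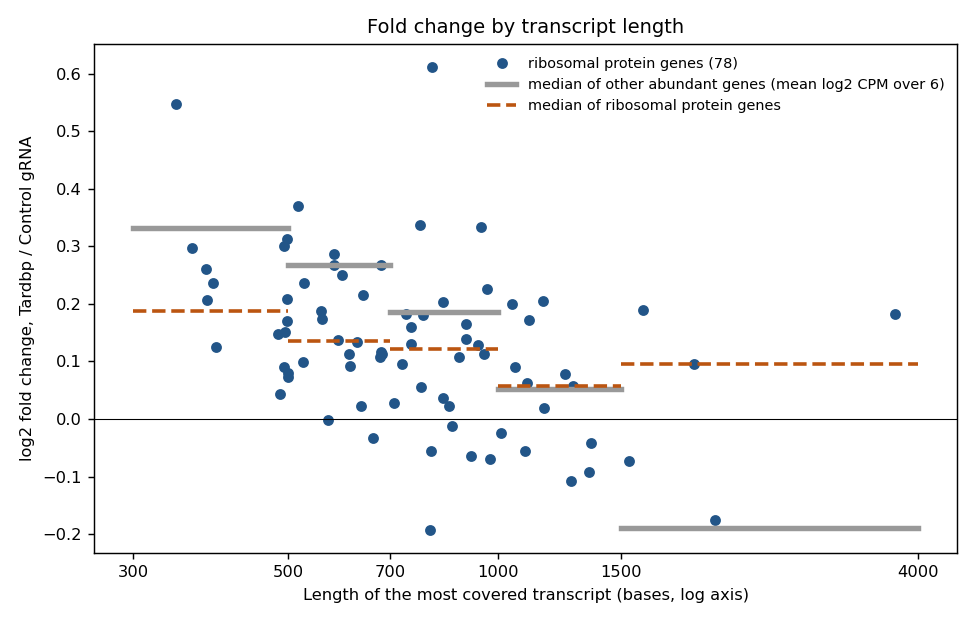
Log2 fold change (vertical axis) against length of the most covered transcript (horizontal log axis, bases) for the 78 tested ribosomal protein genes. Dashed lines mark their median in each band of length, from 0.19 in the shortest to 0.06 at 1000 to 1500 bases, and grey lines the median of other abundant genes, from 0.33 to -0.19 in the longest band.

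The start of the mRNA was then examined, because a pyrimidine run there is the mark of mRNAs whose translation follows growth signals. Windows near 6 starts show in capitals the longest run of C or T within 50 bases of the annotated start. The 6 genes were picked from those with high and low fold changes, by no set rule, and do not stand for all members. Each window is 30 bases from RefSeq on GRCm38.p6, 5′ to 3′ on the gene's own strand.
Rps27 (chr3:90213629-90213658, minus): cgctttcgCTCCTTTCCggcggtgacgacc
Rpl35 (chr2:39005117-39005146, minus): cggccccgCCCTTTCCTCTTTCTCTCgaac
Rpl38 (chr11:114668570-114668599, plus): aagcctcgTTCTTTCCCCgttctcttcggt
Rplp2 (chr7:141447638-141447667, plus): cgtcagcgTCTTCCTTTCgccgccggacgc
Rpl5 (chr5:107900500-107900529, plus): tacagccaCTCTTTCTCacgtcgcttgcgt
Rpl4 (chr9:64173405-64173434, plus): gagcgtggCCTTCTCCTCTCCCCgtcatgg

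In Rps27, Rpl35, Rpl38 and Rplp2, which rose, the run begins 2 to 7 bases before the RefSeq first base and holds that base. In Rpl5, which fell, it begins 20 bases before the RefSeq start and ends upstream of it. In Rpl4, which was not called, it begins 26 bases after that start. The run thus misses the RefSeq first base in both Rpl5 and Rpl4. In GENCODE M21, the Rpl5 gene begins at 107900502, upstream of its run, and the Rps27 gene at 90213651, outside its run. Which runs hold the first base therefore depends on the annotation. Of the 60 members with a RefSeq start window, 51 (85%) held a run of at least 8 bases, each C or T, within 50 bases of the annotated start on the gene's strand, against 39.3% of 27025 genes. Of the members with a run, 27 of 50 tested rose and 2 fell (median log2 fold change 0.14), and of those without, 2 of 8 rose and none fell (0.09). The second set is too small to compare. Over all tested genes, 23.5% rose and 23.3% fell. A run of at least 8 bases held the RefSeq first base itself in 17 of the 60 members (28.3%), against 4.59% of all genes, a measure chosen after the windows were seen. Of these 17, 12 rose and none fell (median 0.19), and of the other 41 tested members with a window 17 rose and 2 fell (0.11). With the length trend taken out, the medians were 0.05 and -0.04. No test was made of that difference. Rps27, Rpl35, Rpl38 and Rplp2, shown above, are among the 17, and Rpl5 and Rpl4 are among the other 41. Those 6 genes were picked with their fold changes known before the measure was chosen, so the split is not independent of the fold changes. Among the 17, the lowest fold change was that of Rpl7a (-0.06, not called). Among the other 41, the highest was that of Rpl39l (0.61) and the lowest that of Rpl10 (-0.19).

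The spans of 29 members host 56 annotated snoRNAs on the same strand, the guides of rRNA modification. Among these hosts, 13 of 29 rose and 2 fell (median log2 fold change 0.10), and among the other tested members 25 of 49 rose and none fell (0.13). Beside these, 23.5% of all tested genes rose and 23.3% fell.

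Because TDP-43 acts on splicing, transcript shares within each gene were compared next with limma. A call took an adjusted p under 0.05 and a share that differed by over 0.1. Of 396 member transcripts in 75 genes, 3 passed (0.758%), beside 0.636% of all 32701 transcripts tested. They belong to 2 of the 75 genes, Rpl10 and Rpl22, where 1.75% of all 8325 genes tested had such a transcript.

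In Rpl10 (chromosome X, 74270812 to 74273135, plus strand, GRCm38), the main transcript Rpl10-201 took a share of 0.785 ± 0.0598 of the gene's counts in Control gRNA against 0.621 ± 0.0474 in Tardbp gRNA (SD, n = 8 per group). Lowest, median and highest shares were 0.694, 0.798 and 0.844 against 0.554, 0.619 and 0.675. The groups did not overlap, and the share fell by 0.164 (SE 0.0265, limma adjusted p 0.00257). Rpl10-202 showed the opposite. Its share rose by 0.167 (SE 0.0311, adjusted p 0.00637), with 0.101, 0.149 and 0.253 in Control gRNA against 0.274, 0.329 and 0.390 in Tardbp gRNA, again with no overlap.

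The level of each transcript moved the same way. Rpl10-201 fell from 473 ± 79.9 to 317 ± 30.5 CPM, a log2 fold change of -0.58 (SE 0.0942, adjusted p 0.000418 by edgeR over 40897 transcripts). Rpl10-202 rose from 95.8 ± 32.1 to 168 ± 29.2 CPM, a log2 fold change of 0.81 (SE 0.181, adjusted p 0.00518). Of all transcripts, 8.5% rose and 8.14% fell at this threshold, as did 22 and 9 of 399 member transcripts.

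Rpl10-202 keeps the first intron, 104 bases at chrX:74270875-74270978, which lies in the 5′ UTR, so that both transcripts have the same coding sequence. It also starts further downstream. The ends of the intron are shown, each in 30 bases from the GRCm38 transcripts of GENCODE M21, with the splice site bases GT and AG in capitals.
Rpl10 intron 1, 5′ end (chrX:74270865-74270894, plus): ctctggcgcgGTgagtgagttcggtcacgg
Rpl10 intron 1, 3′ end (chrX:74270959-74270988, plus): ctttgactgtttcattacAGccaccgacga

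Long GU repeats are the known sites of TDP-43. The intron, in DNA letters on the gene's strand, held TGTG and GTGT 1 time each and neither TGTGTG nor GTGTGT, which says only that these letters are not in this window.

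The authors' splicing table, made from the reads by another tool, gave a percent spliced in (Psi, as a fraction per group, with no value per library) of 0.171 in Control gRNA against 0.294 in Tardbp gRNA for retention of that same intron. There were 15 retained intron nodes in 12 members, and this was the only one with a difference over 0.1, the next having 0.022. Over all genes 9.95% of 844 retained intron nodes passed that size. Of all 475 member nodes, 3 passed it (0.632%), beside 4.7% of 125520 nodes in all genes. The other two were neighbouring 3′ end nodes of Rps3, named after their values were seen. The longer one (chromosome 7, 99477904 to 99478315) was at a Psi of 0.763 in Control gRNA against 0.628 in Tardbp gRNA, and the end node of a few more bases downstream had 0.238 and 0.372. As these are values per group, no test was made of them.

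**Figure D5:**
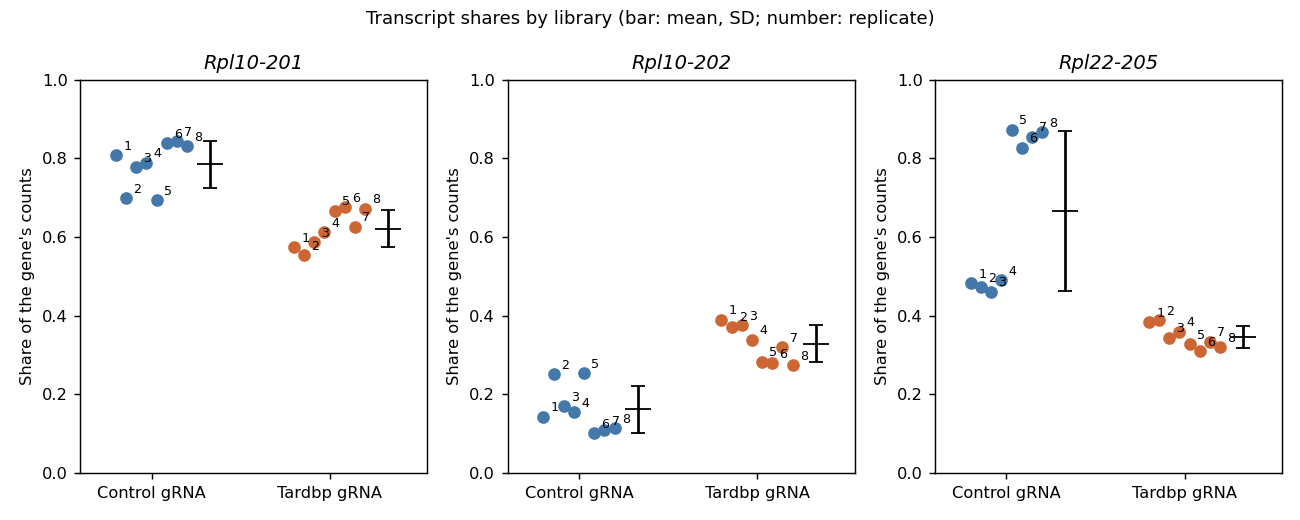
Share of the gene's counts (vertical axis, 0 to 1) taken by Rpl10-201, Rpl10-202 and Rpl22-205 in each library, with replicate numbers at the points and the mean and SD as bars. Groups do not overlap in any panel, and Rpl22-205 splits the Control gRNA libraries into 1 to 4, at 0.461 to 0.490, and 5 to 8, at 0.827 to 0.873.

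In Rpl22 (chromosome 4, 152325742 to 152334071, plus strand), the share of Rpl22-205, a transcript annotated without a coding sequence, fell by 0.320 (SE 0.0706, limma adjusted p 0.0159), from 0.666 ± 0.203 to 0.346 ± 0.0288. The groups did not overlap, with 0.461 to 0.873 in Control gRNA against 0.310 to 0.388 in Tardbp gRNA. Control gRNA libraries formed clusters here. Numbers 1 to 4 had 0.461 to 0.490 and numbers 5 to 8 had 0.827 to 0.873, both above all Tardbp gRNA libraries. With the replicate number as a block, the adjusted p was 0.0711. The authors' table had 8 nodes of Rpl22, and Psi differed between groups by at most 0.021 percentage points in any of them. The annotated transcripts of Rpl22 differ mainly in their ends, and counts were split among them by the authors' tool.

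Without a minimum difference, 14 member transcripts passed (3.54%), beside 4.94% of all transcripts. Among them, the share of Rps19-205, annotated as a target of nonsense-mediated decay, rose from 0.0886 ± 0.00577 to 0.113 ± 0.00720 (adjusted p 0.0425) and that of Rpl24-204 from 0.0265 ± 0.00429 to 0.0471 ± 0.00836 (adjusted p 0.00257, limma, n = 8 per group), neither with overlap. Both were picked after their values were seen. The shares of Rps24, whose short exons near the 3′ end are spliced in a cell type-specific way, were not called, with 0.679 ± 0.0221 and 0.711 ± 0.0246 for the main transcript Rps24-210 (adjusted p 0.184).

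Genes with ribosomal protein names or fusions outside the choice gave a like picture. Of 8, 6 rose and 1 fell, beside 23.5 and 23.3% of all tested genes. Their median log2 fold change was 0.19, and 0.02 with the length trend taken out. Fau, which encodes a fusion of a ubiquitin-like protein with a ribosomal protein, rose by 0.17 on the log2 scale (adjusted p 0.00832 by edgeR). Rpl36al rose by 0.19, Rpl9-ps6 by 0.19 and Rps12-ps3 by 0.35. Rpl7l1, a paralog known from early steps of large subunit assembly, fell by 0.27 (SE 0.0422, adjusted p 3.77e-05 by edgeR), from 233 ± 17.1 to 193 ± 5.78 CPM. Rpl22l1, the paralog of Rpl22, had a log2 fold change of -0.07 (adjusted p 0.351).

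The factors that build ribosomes went mostly the other way. Of 59 ribosome biogenesis genes, 43 fell (72.9%) and 2 rose (3.39%), beside 23.3 and 23.5% of all tested genes. The median log2 fold change was -0.34, with values from Utp20 of the small subunit processome at -1.23 (34.0 ± 5.82 to 14.5 ± 3.0 CPM, edgeR adjusted p 5.74e-07) to Nop10 of the H/ACA snoRNP at 0.31 (adjusted p 0.00045). Biogenesis genes are longer, with a median of 2702 bases, and with the length trend taken out their median was -0.32. Of the other abundant genes over 1500 bases, 56.9% fell and 15.2% rose. Of 14 RNA polymerase I genes, 7 fell and 1 rose (median -0.11, and -0.06 with the length trend taken out), with Polr1b at -0.99 and Znrd1 at 0.34. Of 7 chaperones that carry new ribosomal proteins, 4 fell and 1 rose (median -0.21), with Heatr3, which serves Rpl5, at -0.55 and Pdcd2 at 0.53.

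Translation factors were also lower more often than higher. Of 32 initiation factor genes, 22 fell (68.8%) and 2 rose (6.25%), beside 23.3 and 23.5% of all tested genes. Their median log2 fold change was -0.26, and -0.21 with the length trend taken out, with the scaffold Eif4g1 at -0.92 and Eif3k at 0.19. Of 17 translation factors and other proteins whose mRNAs share the pyrimidine start, 8 fell and 3 rose (median -0.04, and -0.09 with the length trend taken out), with Hnrnpa1 at -0.55 and Eif3f at 0.51. Of 12 regulators of such mRNAs, 6 fell and 3 rose (median -0.27, and -0.11 with the length trend taken out), with the mRNA-binding protein Larp4 at -0.68 and Mycn, at 1.35 CPM in Control gRNA, at 1.10.

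Mitochondrial ribosomal proteins, which build the separate ribosome of that organelle, split evenly. Of 78 tested, 21 rose and 21 fell (26.9% each), near the 23.5 and 23.3% of all tested genes. The median log2 fold change was -0.02, and -0.05 with the length trend taken out, with values from Mrps27 at -0.49 to Mrps21 at 0.46.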

How the data were processed

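RNA of sorted CD8+ T cells was sequenced in 16 libraries (SMART-Seq v4, Nextera XT). According to the submitters' processing notes, alignment was to mm10 by HISAT2 2.1.0 and counting by StringTie 2.1.0, per gene and per transcript. The deposited estimated counts were whole numbers and were not normalized. The deposited counts of read pairs per library (29714709 to 48164083), RNA concentration and fragment size came from the facility. The deposited Psi is a fraction per group from Whippet, and which of its columns is which group was read from the study's text. Columns with the authors' differences and probabilities were not used.

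Kept were 55536 genes of GENCODE M21. Left out were 26345 lines that name no gene (0.0836 to 0.132% of counts) and 10 columns that match no sample here. Ribosomal protein genes have 299 annotated -ps copies, which held 0.201 to 0.275% of counts, and reads may be split with them. Counts are not independent molecules, since PCR copies were counted, and strand was not marked by the kit.

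Genes were tested with edgeR 4.0.16 (R 4.3.3; quasi-likelihood, TMM, filterByExpr with a minimum count of 10 and a total of 15) and transcript shares with limma 3.58.1, two-sided, at a Benjamini-Hochberg adjusted p under 0.05 over the whole table. CPM values are TMM-scaled, except the summed markers, which are scaled by annotated totals alone. TPM was computed from transcript counts and annotated lengths. Steps were tested on simulated data. Alternatives were other scalings, filters, DESeq2 1.42.0, covariates and left-out libraries. Named genes were Tardbp, the 6 highest and 6 lowest members, members chosen for their roles, paralogs with their parents, called transcripts, and the extremes of each list. Members, lists and alternatives were chosen with earlier results of these data known. Some genes that enter the counts are not reported here by name.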

Additional observations from a re-analysis of the deposited data

Results flagged for a closer look

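Among 62 groups of 8 libraries checked for a library far from the others, 17 held one, where chance gives about 1 in 20 (3.1). Of these, 11 were Control gRNA library 1, high in each. Its CPM was 727 for Rpl10 (other libraries 540 to 600), 252 for Rpl38 (185 to 214), 239.5 for Rpl39 (179 to 203), 1721 for Rpl4 (1403 to 1535), 894 for Rpl5 (611 to 738), 2216 for Rplp0 (1699 to 1927), 503 for Rplp1 (352 to 411), 532 for Rps27a (352 to 413), 659 for Rps4x (478 to 546), 891 for Rps6 (703 to 767) and 1121 for Rpsa (886 to 984). Tardbp gRNA library 4 was high in 5, with 1077 CPM for Rpl32 (others 819 to 930), 286 for Rpl38 (237 to 260), 951 for Rps14 (768 to 845), 377 for Rps27l (302 to 331) and 937 for Rps6 (758 to 830). Tardbp itself was lowest in Tardbp gRNA library 3, at 110 CPM (others 130 to 147). These genes vary together, so the groups checked are not independent.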

How the results depend on the processing

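Of the results named here, the number of ribosomal protein genes called (40) moved by over 1.5 times with numbers 1 to 3 alone (1) and with RNA concentration as a covariate (15). Those higher (38) did so in the same fits (1 and 15) and with the length trend taken out (12). Those lower (2) gave 0 with library totals, with numbers 1 to 3 alone and with RNA concentration, 1 with no filter, with numbers 4 to 8 alone, with the GC trend taken out and at an adjusted p under 0.01, and 18 with the length trend taken out. Called genes in all (7783) gave 1696 and 2697 with numbers 1 to 3 alone and RNA concentration, and lower ribosome biogenesis genes (43) gave 20 and 17. The cause was not tested, although numbers 1 to 3 alone have fewer samples. Leaving out libraries gave 31 to 54 called members, 26 to 52 higher and 1 to 5 lower, 7265 to 7734 genes in all and 40 to 49 lower biogenesis genes. DESeq2 called 37 members higher and 2 lower. Without a minimum difference, 14 member transcripts passed in place of 3. The added setting with Control gRNA replicate 1 and Tardbp gRNA replicate 4 left out, and the length and GC trends, were chosen after seeing the data.

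The signs of uncalled genes near 0 turned. With numbers 1 to 3 alone these were Rpl11 (-0.013), Rpl39 (-0.001), Rps27a (-0.107) and Rpsa (-0.030). With the length trend taken out they were Rpl11 (-0.098), Rpl39 (-0.057), Rps27a (-0.143), Rps6 (-0.023), Rpsa (-0.040) and the called Rps27l (-0.018). With RNA concentration they were Rpl4 (0.017), the called Rpl5 (0.030), Rpl6 (0.002), Rplp0 (0.022) and Rps4x (0.061). With library totals they were Rplp0 (0.029) and Rps4x (0.003). With the letter M or F as a covariate the sign of Rps27a turned (-0.047). In that fit 32 members rose and 3 fell, with 7362 genes called in all. Left-out libraries put Rpl11 at -0.008 to 0.062 and Rps27a at -0.047 to 0.081.

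The replicate number was also set as a block. It called 40 members higher and 2 lower, 7645 genes in all, and 2 member transcript shares in place of 3, Rpl22-205 having an adjusted p of 0.0711. Deviations of same-numbered libraries had correlations of -0.005 to 0.16, and 5 of 16 libraries correlated best with their own number. No label states a pairing by number, and these values cannot settle whether there was one.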
